A study of Mus musculus with 12 samples.

Results

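The 33 genes described here encode amino acid and peptide transporters of the solute carrier (SLC) superfamily, in 10 groups by family and mode of transport. They were chosen by name, but with earlier results of these data known, so the shares of them called are descriptions. A gene counted as measured when the deposited table held a probe set assigned to it alone, and by that rule all 33 were measured among 19938 genes in all. Slc38a1 was the only one with more than 1 such probe set, and the one with the highest mean was used.

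Amino acid carriers differ in what drives them. Uniporters let an amino acid run down its own gradient, exchangers swap one amino acid for another, and the sodium- or proton-coupled carriers use an ion gradient to load the cell against the concentration difference. Many light chains of the SLC7 family reach the plasma membrane only as a pair with a heavy chain of the SLC3 family. Mouse embryonic stem cells (ESCs) take up large amounts of glutamine and rely on threonine breakdown for growth, and the pool of leucine, arginine and glutamine inside a cell feeds the growth-controlling kinase complex mTORC1.

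Gene expression had been measured in R1 cells, a mouse ESC line, on 12 Affymetrix arrays hybridised with biotin-labelled material from total RNA. The arrays fell into 5 groups: KD1 cells after retinoic acid (4 arrays), scrambled cells after retinoic acid (2), KD2 ESCs (2), KD1 ESCs (2) and scrambled ESCs (2). KD1 and KD2 are the labels' names for lines in which Smarcd1 was knocked down, and scrambled cells carried a control infection. The product of Smarcd1, BAF60a, belongs to the SWI/SNF complexes that remodel chromatin. The retinoic acid groups received 1 µM retinoic acid for 4 days without leukaemia inhibitory factor, whereas the ESC groups grew with that factor, and KD2 cells after retinoic acid were not analysed here. All cells came from cultures grown with serum and added non-essential amino acids on mitomycin-treated embryonic fibroblasts, whose RNA may be in the samples. The protocols speak of clones without giving their number, and no uninfected cells are among the groups, so all groups share an infection. The labels call the replicates biological and say no more of their origin, and the p-values speak only to array-to-array spread within these groups, which may be technical. In such bulk RNA, fewer cells of a type and less RNA per cell cannot be told apart.

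The values were log2 probe set summaries, and a gene entered the tests when it lay above percentile 40 of all named genes, here called the dim level (4.46 to 4.63 on the log2 scale), on at least 2 arrays. This left 12988 genes and 26 of the 33 transporters. Of these, 18 lay above the dim level on all arrays and 8 on some of them (Slc1a1, Slc7a2, Slc7a7, Slc7a10, Slc15a1, Slc15a2, Slc16a10 and Slc38a3). Slc15a1 passed only through ESC arrays, Slc15a2 mainly through scrambled ESCs and Slc7a2 only through scrambled cells after retinoic acid. These genes therefore had to differ between groups. Slc1a1, Slc16a10 and Slc38a3 lay above the dim level on more ESC arrays than retinoic acid arrays, and counts over the 26 are descriptions. Smarcd1 itself read 6.36, 6.61, 6.50 and 6.44 in KD1 cells after retinoic acid, against 8.84 and 8.64 in scrambled cells after retinoic acid, and 7.75 and 7.78 in KD1 ESCs, against 8.67 and 8.68 in scrambled ESCs. In KD2 ESCs it read 8.56 on the array labelled replicate 1, which goes against that label, and 7.16 on replicate 2. KD2 hereafter names both arrays so labelled, of which the second alone had a Smarcd1 value well under the scrambled ones. By limma with Benjamini-Hochberg adjustment, Smarcd1 did not pass an adjusted p of 0.05 against scrambled ESCs in either line. Its log2 change was -0.91 in KD1 ESCs (adjusted p = 0.23) and -0.81 in KD2 ESCs (adjusted p = 0.152). It passed in KD1 against scrambled cells after retinoic acid (-2.26, adjusted p = 0.000152). The KD2 arrays had an estimated weight of 0.137 each, against at least 1.165 for every other array. Since 1 limma model pooled the spread of all arrays, results are given with and without them. Counts from most other alternative fits have no share of all tested genes beside them. That share moves between fits too, so such counts are descriptions of the fit.

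Most of the tested transporter genes were lower after retinoic acid. Retinoic acid and the absence of leukaemia inhibitory factor came together in these arrays and cannot be told apart. In KD1 cells 16 of the 26 fell and 2 rose after retinoic acid, and in scrambled cells 17 fell and 3 rose (limma, Benjamini-Hochberg adjusted p under 0.05 over all tested genes). The transporters called made up 69.2% of those tested in KD1 cells, where 50.8% of all tested genes were called, 29.4% as higher and 21.4% as lower. In scrambled cells the share was 76.9%, where 39.1% of all tested genes were called, 22.4% as higher and 16.7% as lower. The median log2 change of the transporters was -0.73 in KD1 cells and -1.13 in scrambled cells, beside 0.06 for all tested genes in each. Among the 18 above the dim level on all arrays, 10 fell and 2 rose in KD1 cells, and 11 fell and 2 rose in scrambled cells. The arginine transporter gene Slc7a3, the exchanger light chains Slc7a7 and Slc7a5 and their heavy chain Slc3a2 fell in both lines, and Slc36a4 rose in both. Without the KD2 arrays 20 of the 26 were called in KD1 cells (64.0% of all tested genes) and 22 in scrambled cells (54.5%). Without replicate 1 of the scrambled cells after retinoic acid, 12 were called in scrambled cells. Pluripotent cell markers moved with this comparison: the array means of 14 such genes ran from 6.33 to 7.14 in KD1 cells after retinoic acid, against 10.41 to 10.56 in KD1 ESCs, and from 6.51 to 6.52 in scrambled cells after retinoic acid, against 9.63 to 10.16 in scrambled ESCs. Extraembryonic endoderm markers moved too, with 14 of 18 tested higher and 2 lower in KD1 cells (array means of 8.27 to 8.63, against 6.13 to 6.16 in KD1 ESCs) and 10 of 18 higher in scrambled cells (6.47 to 6.52, against 5.55 to 5.56 in scrambled ESCs). The part of these markers in the transporter changes was not tested.

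**Figure D1:**
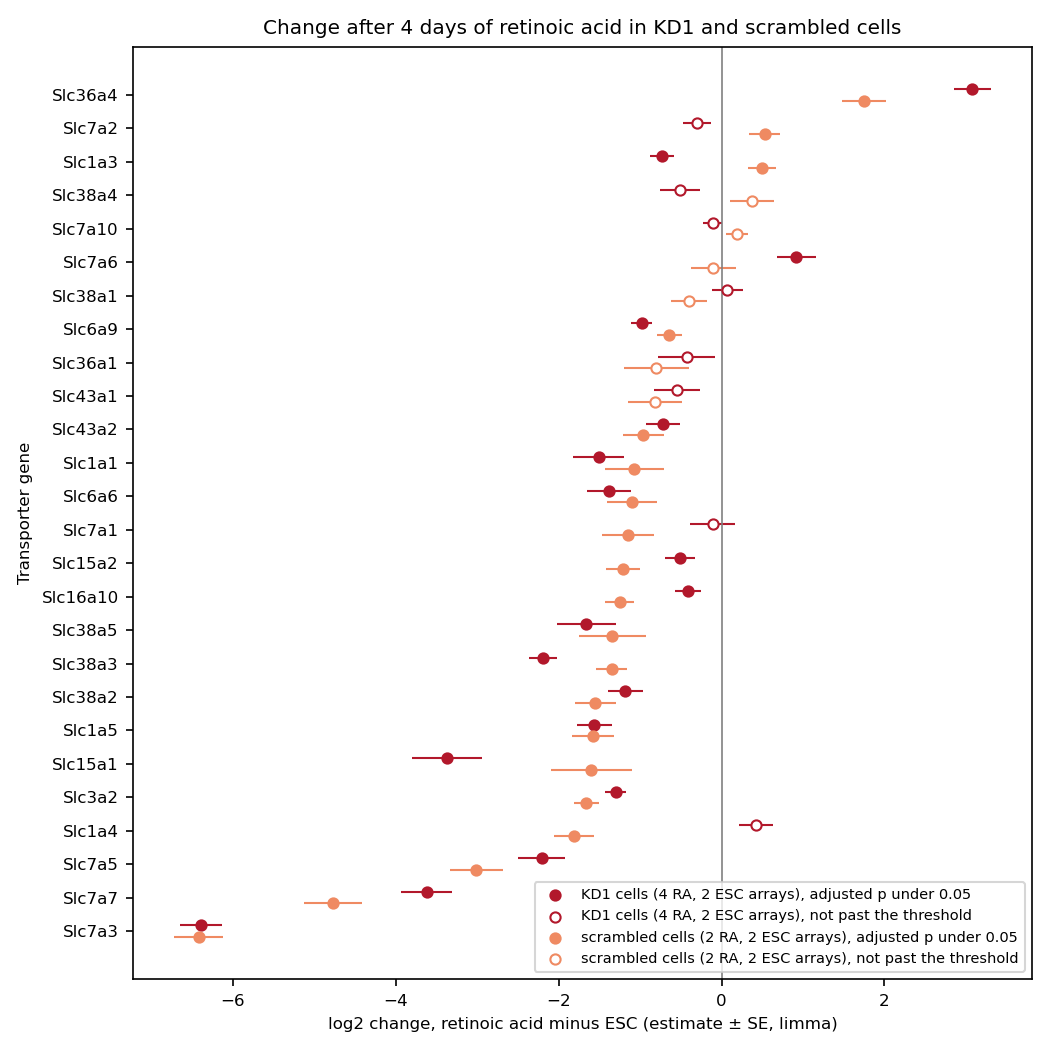
Log2 change after retinoic acid (retinoic acid minus ESC, limma estimate with SE as bars) of the 26 tested transporter genes, in KD1 cells (dark red, upper marker) and scrambled cells (orange, lower marker), with filled markers for an adjusted p under 0.05. Most markers lie left of 0 in both lines, Slc7a3 lies farthest left at -6.39 in KD1 and -6.42 in scrambled cells, Slc36a4 lies farthest right, and Slc1a4 lies on opposite sides of 0 in the lines.

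After retinoic acid, KD1 cells differed from scrambled cells in 10 of the 26 genes, 4 higher and 6 lower (38.5%, where 22.7% of all tested genes were called, 11.2% as higher and 11.5% as lower). The arginine and lysine transporter gene Slc7a1, the neutral exchanger gene Slc1a4, Slc7a7 and Slc36a4 were higher in KD1 cells. The glutamate transporter gene Slc1a3, the glutamine transporter gene Slc38a3, Slc15a2, Slc38a4, Slc7a2 and the glycine transporter gene Slc6a9 were lower. The median log2 change was -0.04, beside -0.02 for all tested genes, so the list as a whole stood near the middle of all genes. Among the 18 genes above the dim level on all arrays 3 were higher and 3 lower. Without the KD2 arrays 12 genes were called (37.1% of all tested genes), Slc7a6 and Slc36a1 in addition. Leaving out either of the scrambled arrays after retinoic acid left 5 calls, and 4 genes (Slc1a3, Slc1a4, Slc7a1 and Slc38a3) passed whichever array was left out. With only replicates 1 and 2 of the KD1 cells after retinoic acid 5 were called.

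Marker genes of other cell types differed between the same arrays. The array means of 21 extraembryonic endoderm markers ran from 8.27 to 8.63 in KD1 cells after retinoic acid, against 6.47 to 6.52 in scrambled cells after retinoic acid, and 15 of the 18 tested were higher. Afp, Apob and Fgb stayed under the dim level on all arrays of both groups. Feeder and fibroblast markers had array means of 6.18 to 6.62 in KD1 cells, against 7.18 to 7.45 in scrambled cells, with 6 of 13 tested lower and Lum and Fap under the dim level throughout. Neural progenitor markers ran from 4.72 to 5.03 in KD1 cells, against 5.65 to 5.93 in scrambled cells, and retinoic acid response genes from 7.65 to 8.25, against 9.07 to 9.15. Of 14 pluripotent cell markers 5 were higher and 1 lower in KD1 cells, with array means of 6.33 to 7.14, against 6.51 to 6.52 in scrambled cells. KD1 replicates 3 and 4 had the highest of these means (7.14 and 6.94). The part of these differences in the transporter values was not tested.

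The change after retinoic acid itself differed between KD1 and scrambled cells for 3 genes, Slc1a4 and Slc36a4 toward higher and Slc1a3 toward lower in KD1 cells (interaction term; 11.5% of the 26, where 7.88% of all tested genes were called, 4.27% as higher and 3.61% as lower). Without the KD2 arrays 12 genes passed (18.5% of all tested genes). The added genes were Slc7a1, Slc7a5, Slc7a6, Slc7a7 and Slc16a10 with a positive term, and Slc7a2, Slc15a1, Slc38a3 and Slc38a4 with a negative one.

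In undifferentiated ESCs the KD1 and KD2 lines differed from the same scrambled arrays in unlike numbers of genes. KD2 ESCs had 1 transporter gene higher (Slc15a1) and 11 lower, 46.2% of the 26, where 10.0% of all tested genes were called, 2.88% as higher and 7.15% as lower. The median log2 change was -0.81 in KD2 ESCs, beside -0.02 for all tested genes, and 8 of the 18 genes above the dim level on all arrays were lower. In KD1 ESCs only the short-peptide transporter gene Slc15a2 and the aromatic amino acid carrier gene Slc16a10 were called, both lower (7.69%, where 2.32% of all tested genes were called, 0.909% as higher and 1.41% as lower), with a median of -0.10 beside 0.00. Both are among the 8 genes above the dim level on only some arrays, and leaving out scrambled ESC replicate 2 or either KD1 array left 1 call. Directly compared, KD2 ESCs read lower than KD1 ESCs for Slc43a1, Slc6a9 and Slc38a3 (11.5%, where 2.70% of all tested genes were called, 0.508% as higher and 2.19% as lower). Without the array labelled KD2 replicate 1, 21 genes were called for KD2 against scrambled ESCs (34.4% of all tested genes) and 18 for KD2 against KD1 (35.0%). Without KD2 replicate 2 these counts were 14 (30.5%) and 5 (16.1%), and the lone KD2 array was then assumed to vary like the other groups. Fitted with array weights or on the compared arrays only, the KD2 count was 0 (13 and 14 at an unadjusted p under 0.05), the KD2 against KD1 count 0 (3 and 6), and the KD1 count 7 and 4. No share of all tested genes is set beside these counts. The KD2 count was 7 without scrambled ESC replicate 2, and the KD2 against KD1 count was 0 without either KD1 array (9 without replicate 1 and 8 without replicate 2 at an unadjusted p under 0.05). Without both KD2 arrays 6 genes were called in KD1 ESCs (8.14% of all tested genes), Slc15a1 and Slc7a1 higher and Slc15a2, Slc16a10, Slc1a4 and Slc7a5 lower.

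**Figure D2:**
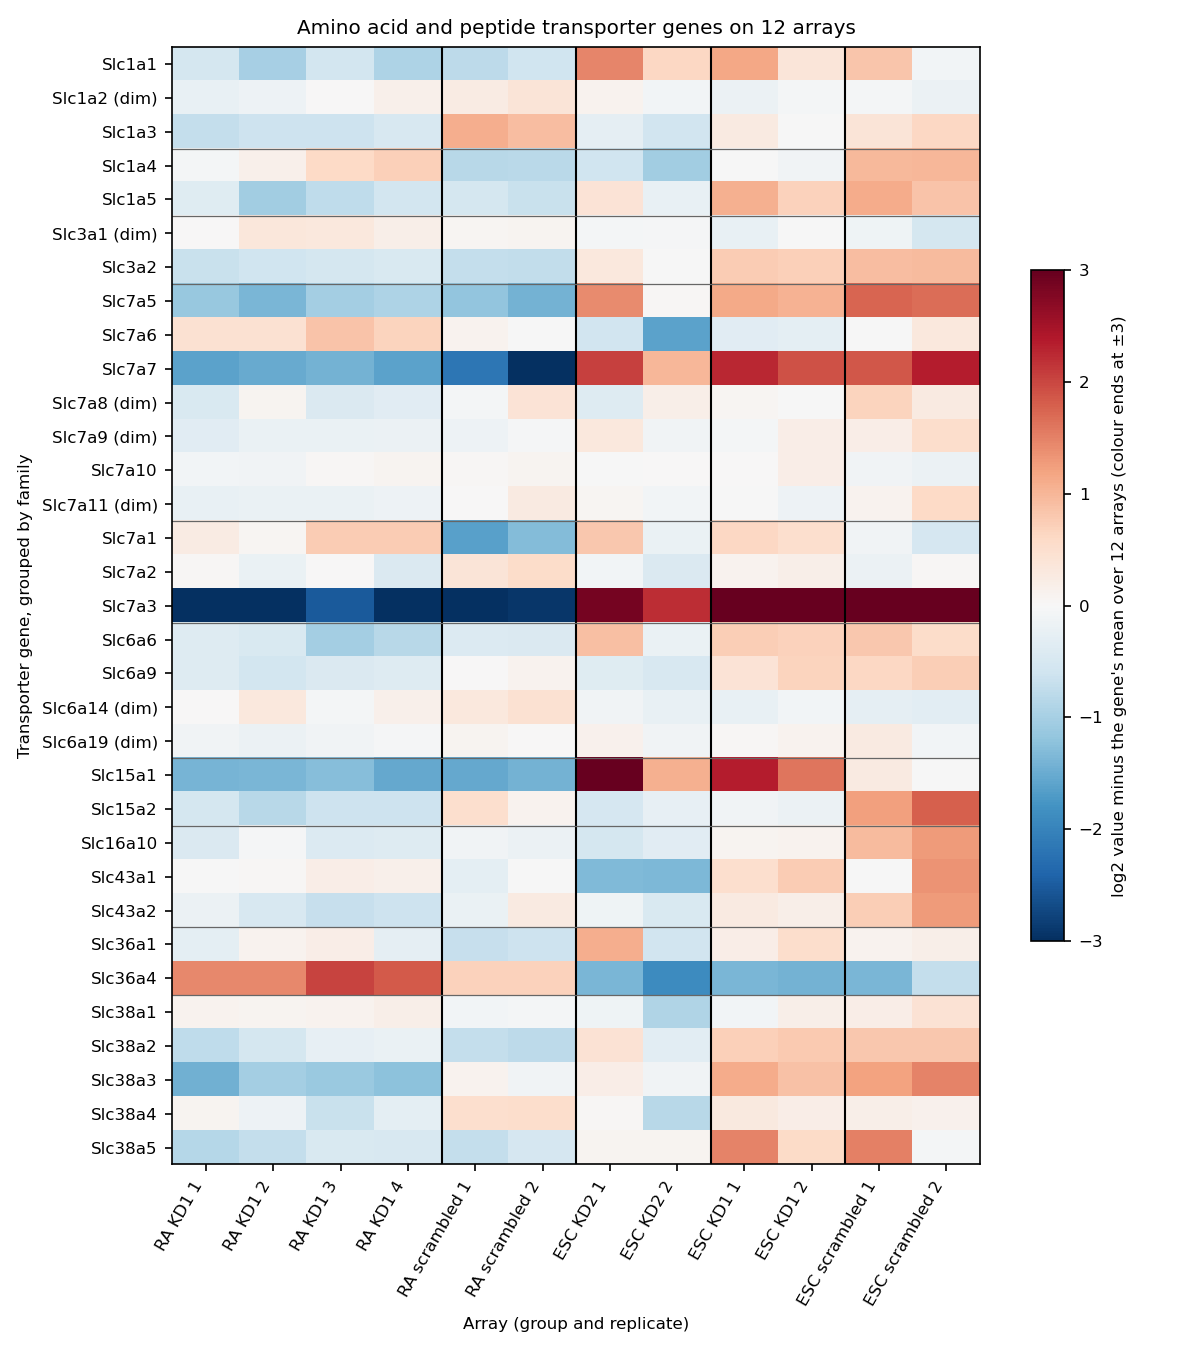
Log2 value of each of the 33 transporter genes minus its own mean over the 12 arrays (colour, cut at 3 in either direction), with genes in rows by family and arrays in columns by group. Rows marked dim belong to the 7 genes that were not tested. Slc7a3, Slc7a7 and Slc7a5 lie above their means in ESC columns (red) and below them in retinoic acid columns (blue), and Slc36a4 shows the opposite. In KD2 replicate 2, Slc7a5 lies about at its mean (9.56 beside 9.52).

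The cationic amino acid transporters of the SLC7 family carry arginine, lysine and ornithine, and arginine feeds both mTORC1 and nitric oxide synthesis. Slc7a3 showed the largest change of any tested transporter after retinoic acid. It read 4.85, 4.60, 5.64 and 5.16 in KD1 cells after retinoic acid and 5.01 and 5.24 in scrambled cells after retinoic acid, against 11.02 and 10.38 in KD2 ESCs, 11.51 and 11.40 in KD1 ESCs and 11.46 and 11.63 in scrambled ESCs. The arrays formed a high ESC set and a low retinoic acid set, far apart. The log2 change was -6.39 ± 0.26 in KD1 cells (SE, 84.1-fold lower, adjusted p = 2.93e-08) and -6.42 ± 0.30 in scrambled cells (85.8-fold lower, adjusted p = 1.29e-07). KD1 and scrambled cells did not differ detectably for Slc7a3, either after retinoic acid (-0.06, 95% interval -0.63 to 0.51) or in ESCs (-0.09, 95% interval -0.74 to 0.57).

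Slc7a1, the widely expressed member of this group, took another course. It read 8.94, 8.75, 9.45 and 9.45 in KD1 cells after retinoic acid, against 7.07 and 7.39 in scrambled cells after retinoic acid. In ESCs it read 9.50 and 8.50 in KD2, 9.31 and 9.21 in KD1 and 8.58 and 8.19 in scrambled cells. All 4 KD1 arrays after retinoic acid lay above every scrambled array of either state. After retinoic acid the KD1 level was 3.78-fold higher than the scrambled level (log2 change 1.92 ± 0.28, adjusted p = 0.000457), the largest increase among the transporters in that comparison. Replicates 1 and 2 alone gave 1.62 and replicates 3 and 4 alone 2.22 on the log2 scale. Slc7a1 fell after retinoic acid in scrambled cells (-1.15 ± 0.32, adjusted p = 0.0142). This call was lost without scrambled ESC replicate 1 or scrambled retinoic acid replicate 1. By contrast, the change in KD1 cells was -0.11 ± 0.28 (adjusted p = 0.755). The difference between these changes was 1.04 ± 0.43 with an adjusted p of 0.186, and of 0.0438 without the KD2 arrays. Slc7a2, known mainly from liver and macrophages, lay above the dim level only in scrambled cells after retinoic acid. It read 4.28, 4.05, 4.27 and 3.81 in KD1 cells after retinoic acid, against 4.64 and 4.79 in scrambled cells after retinoic acid, where the difference was called (adjusted p = 0.0213). With the KD1 group under the dim level, the scrambled level was at least 1.15-fold higher, and the call was lost without either scrambled array (0.0846 and 0.171) or KD1 replicate 4 (0.0512). Its rise after retinoic acid in scrambled cells, at least 1.11-fold (adjusted p = 0.0477), was lost without any 1 of 9 arrays, up to 0.233.

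The heavy chain Slc3a2, also known as CD98, carries the light chains Slc7a5, Slc7a6, Slc7a7, Slc7a8, Slc7a10 and Slc7a11 to the membrane, while Slc3a1 does so for Slc7a9 in kidney and intestine. Slc3a2 read 10.75, 10.81, 10.89 and 10.96 in KD1 cells after retinoic acid and 10.71 and 10.68 in scrambled cells after retinoic acid, against 11.73 and 11.41 in KD2 ESCs, 12.18 and 12.13 in KD1 ESCs and 12.35 and 12.36 in scrambled ESCs. The groups stepped down with no overlap between the ESC and the retinoic acid arrays, and the KD2 arrays lay between. The log2 change after retinoic acid was -1.30 ± 0.13 in KD1 cells (adjusted p = 1.14e-05) and -1.66 ± 0.15 in scrambled cells (adjusted p = 1.13e-05). KD2 ESCs stood 1.72-fold below scrambled ESCs (-0.78 ± 0.15, adjusted p = 0.0088), and KD2 replicate 2 alone gave -0.95, while the array labelled KD2 replicate 1 alone gave -0.62. The call was lost without scrambled ESC replicate 2 (adjusted p = 0.0731).

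Slc7a5, the light chain known as LAT1, brings in leucine and other large neutral amino acids in exchange for glutamine. It read 8.39, 8.14, 8.49 and 8.59 in KD1 cells after retinoic acid and 8.34 and 8.10 in scrambled cells after retinoic acid, against 10.93 and 9.56 in KD2 ESCs, 10.65 and 10.57 in KD1 ESCs and 11.26 and 11.19 in scrambled ESCs. Every retinoic acid array lay below every ESC array, and the KD2 arrays lay far apart from each other. The gene was 4.62-fold lower after retinoic acid in KD1 cells (-2.21 ± 0.29, adjusted p = 6.62e-05) and 8.04-fold lower in scrambled cells (-3.01 ± 0.33, adjusted p = 3.65e-05). In KD1 ESCs both arrays lay under both scrambled arrays (-0.61 ± 0.33, adjusted p = 0.513, and 0.0339 without the KD2 arrays), and with each chromosome centred the change was -0.36 (adjusted p = 0.815).

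Slc7a7 and Slc7a6 are the light chains that export arginine and lysine in exchange for neutral amino acids with sodium, and loss of the human counterpart of Slc7a7 causes lysinuric protein intolerance. Slc7a7 read 5.90, 6.01, 6.10 and 5.91 in KD1 cells after retinoic acid and 5.34 and 4.36 in scrambled cells after retinoic acid, the last of these under the dim level. In ESCs it read 9.57 and 8.50 in KD2, 9.78 and 9.43 in KD1 and 9.37 and 9.86 in scrambled cells. The ESC arrays lay above all retinoic acid arrays, and within the retinoic acid arrays the KD1 set lay above the scrambled set. The gene fell 12.3-fold in KD1 cells (-3.62 ± 0.31, adjusted p = 2.9e-06) and 27.3-fold in scrambled cells (-4.77 ± 0.36, adjusted p = 2.44e-06). After retinoic acid the KD1 level was 2.19-fold higher (1.13 ± 0.31, adjusted p = 0.0202), a change of 0.64 and no call without scrambled retinoic acid replicate 2 (adjusted p = 0.297). Slc7a7 lies on chromosome 14, whose tested genes had a median change of 0.18 in this comparison, and after centring each chromosome the change was 0.92 (adjusted p = 0.0611).

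Slc7a6 was the only light chain gene that rose after retinoic acid in a line. It read 10.38, 10.37, 10.76 and 10.58 in KD1 cells after retinoic acid and 10.01 and 9.91 in scrambled cells after retinoic acid, against 9.33 and 8.30 in KD2 ESCs, 9.58 and 9.62 in KD1 ESCs and 9.90 and 10.22 in scrambled ESCs. The KD1 arrays after retinoic acid were the highest of all and the KD2 ESC arrays the lowest. The change was 0.92 ± 0.24 in KD1 cells (1.89-fold, adjusted p = 0.00751, and 0.0543 without KD1 ESC replicate 1) and -0.10 ± 0.28 in scrambled cells (adjusted p = 0.824). KD2 ESCs were 2.37-fold below scrambled ESCs (-1.24 ± 0.28, adjusted p = 0.0161), with -1.76 from KD2 replicate 2 alone, -0.73 from the array labelled KD2 replicate 1 alone and an adjusted p of 0.143 without scrambled ESC replicate 2. Slc7a5, Slc7a6 and Slc7a2 lie on chromosome 8, whose tested genes had a median change of -0.32 in KD2 and -0.30 in KD1 ESCs and of -0.31 in KD1 against scrambled cells after retinoic acid. With each chromosome centred, the KD2 change of Slc7a6 was -0.95 (adjusted p = 0.0957), and KD1 against scrambled cells after retinoic acid came to 0.87 for Slc7a6 (adjusted p = 0.0437) and -0.30 for Slc7a2 (adjusted p = 0.311). Slc7a10, a carrier of small neutral amino acids known from brain, stayed close to the dim level (4.38 to 4.74 on all arrays) and passed no test in the model of all 12 arrays.

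The exchangers Slc1a4 and Slc1a5 swap alanine, serine, cysteine, threonine and, for Slc1a5, glutamine across the membrane. Slc1a4 had the largest difference between KD1 and scrambled cells in its change after retinoic acid among the tested transporters. It read 7.12, 7.33, 7.78 and 7.89 in KD1 cells after retinoic acid, against 6.34 and 6.36 in scrambled cells after retinoic acid. In ESCs the order was turned, with 6.58 and 6.14 in KD2 and 7.15 and 7.07 in KD1, against 8.14 and 8.17 in scrambled cells. The arrays labelled KD1 or KD2 lay below the scrambled arrays in ESCs, and those labelled KD1 lay above them after retinoic acid, without overlap in either state. Slc1a4 fell 3.50-fold after retinoic acid in scrambled cells (-1.81 ± 0.25, adjusted p = 0.00016), whereas in KD1 cells the change was 0.42 ± 0.21 (adjusted p = 0.119). The difference between these changes was 2.23 ± 0.33 (adjusted p = 0.0017), past the threshold whichever array was left out. After retinoic acid the KD1 level was 2.27-fold higher (1.18 ± 0.21, adjusted p = 0.00191), with 0.88 from replicates 1 and 2 and 1.49 from replicates 3 and 4. KD2 ESCs were 3.48-fold below scrambled ESCs (-1.80 ± 0.25, adjusted p = 0.00136), with -2.02 from KD2 replicate 2 alone and -1.58 from the array labelled KD2 replicate 1 alone. KD1 ESCs stood at -1.05 ± 0.25 (adjusted p = 0.0507, and 0.0155 without the KD2 arrays). Slc1a5 read 7.70, 7.01, 7.31 and 7.50 in KD1 cells after retinoic acid and 7.53 and 7.40 in scrambled cells after retinoic acid, against 8.47 and 7.84 in KD2 ESCs, 9.13 and 8.75 in KD1 ESCs and 9.18 and 8.91 in scrambled ESCs. It fell in both lines, by 1.56 ± 0.22 in KD1 cells (adjusted p = 0.000139) and by 1.58 ± 0.26 in scrambled cells (adjusted p = 0.000567) on the log2 scale, with a difference between the changes of 0.02 ± 0.34 (95% interval -0.72 to 0.77).

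**Figure D3:**
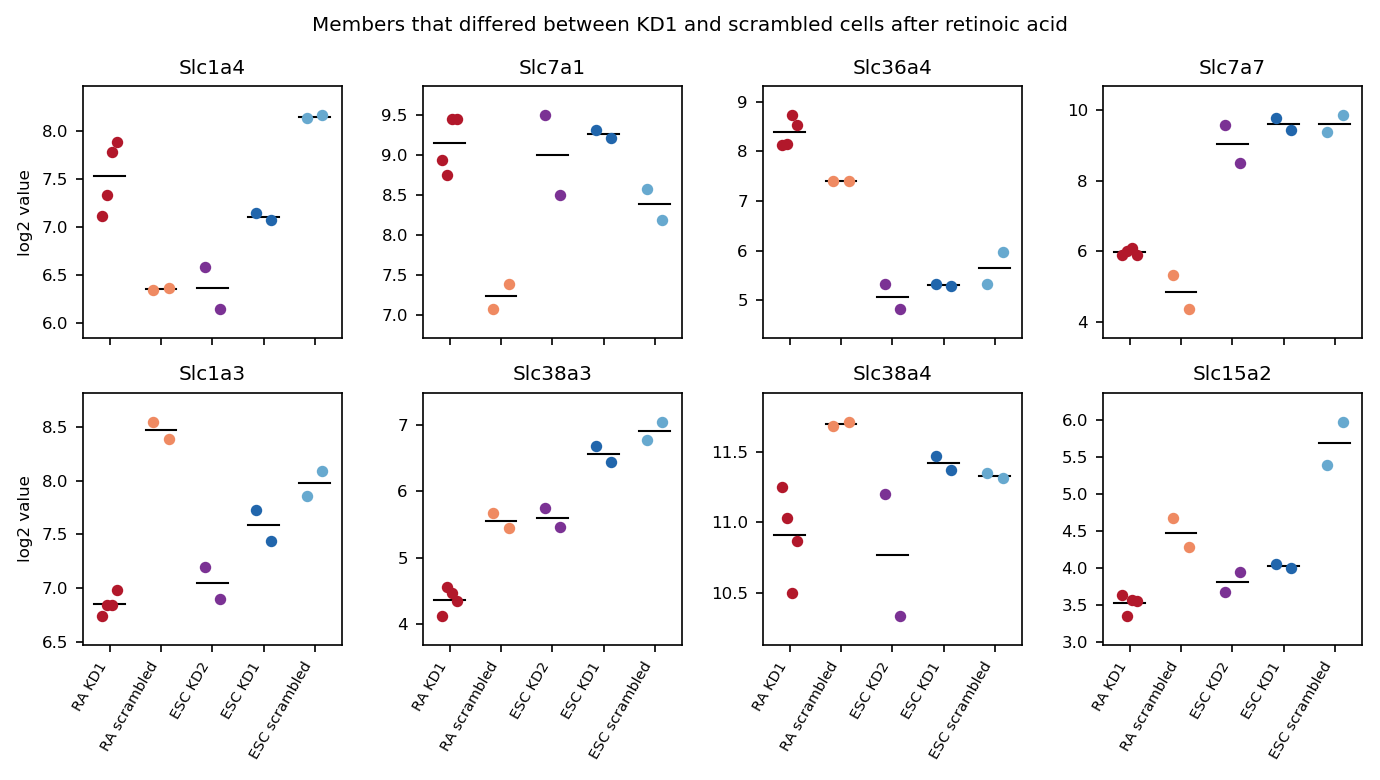
Log2 values on each array (points, with the group mean as a line) of 8 of the 10 transporter genes that differed between KD1 and scrambled cells after retinoic acid, by group. Slc1a4, Slc7a1, Slc36a4 and Slc7a7 lie higher in the 4 KD1 arrays after retinoic acid than in the 2 scrambled arrays, and Slc1a3, Slc38a3, Slc38a4 and Slc15a2 lie lower.

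Amino acid shortage is known to raise several transporter genes through ATF4, which binds with C/EBP proteins at amino acid response elements, so the proximal promoters of the genes were searched for the core of that element, TGATGNAAN, on both strands. RefSeq promoters of the mouse build GRCm38.p6, from 250 bases before to 50 bases after the start, matched 26 of the 33 genes with 38 promoters. The other 7 (Slc7a2, Slc38a3, Slc7a3, Slc7a5, Slc38a1, Slc1a5 and Slc6a6) had no promoter entry and were not searched for any motif. The core was found in 4 of these 38 promoters (10.5%), those of Slc1a4, Slc7a11 and 2 overlapping ones of Slc7a7, and in 3.95% of all 32851 promoters. The stretch from 240 bases before to 10 bases after the start is shown for these 3 genes with the core in capitals, because they are the only matches. Slc1a4 is at chr11:20332704-20332953, minus strand, Slc7a7 (1 of its 5 promoters) at chr14:54417935-54418184, minus strand, and Slc7a11 at chr3:50443604-50443853, minus strand, all written 5′ to 3′ in the direction of the gene.
Slc1a4: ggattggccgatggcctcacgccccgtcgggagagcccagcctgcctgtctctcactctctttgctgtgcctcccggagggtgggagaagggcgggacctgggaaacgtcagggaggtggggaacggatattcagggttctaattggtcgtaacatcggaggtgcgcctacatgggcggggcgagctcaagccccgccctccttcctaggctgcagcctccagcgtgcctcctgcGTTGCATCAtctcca
Slc7a7: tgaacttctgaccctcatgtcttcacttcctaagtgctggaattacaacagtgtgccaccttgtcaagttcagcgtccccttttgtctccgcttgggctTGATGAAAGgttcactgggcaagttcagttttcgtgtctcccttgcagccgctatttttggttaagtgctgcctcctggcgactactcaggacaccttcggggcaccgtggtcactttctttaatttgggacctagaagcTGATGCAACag
Slc7a11: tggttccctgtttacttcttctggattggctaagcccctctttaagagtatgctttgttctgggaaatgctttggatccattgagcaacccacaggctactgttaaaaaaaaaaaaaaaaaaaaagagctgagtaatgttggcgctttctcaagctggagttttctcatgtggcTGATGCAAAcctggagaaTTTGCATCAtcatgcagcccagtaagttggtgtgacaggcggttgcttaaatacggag
In Slc1a4 the core GTTGCATCA starts 5 bases before the start, as the opposite strand. In Slc7a7 TGATGAAAG starts 141 bases and TGATGCAAC 1 base before the start. Slc7a11, the cystine and glutamate exchanger known as xCT, has 2 cores facing each other, TGATGCAAA at 66 and TTTGCATCA at 48 bases before the start, and no other motif searched was found in the promoters of these 3 genes. Of the 3 genes, Slc7a11 lay under the dim level on every array (2.93 to 3.77). Slc1a4 and Slc7a7 were higher in KD1 than in scrambled cells after retinoic acid, and centring each chromosome lost the Slc7a7 call. From ESCs to retinoic acid Slc7a7 fell in KD1 (-3.62) and scrambled cells (-4.77), and Slc1a4 fell in scrambled cells only (-1.81). In KD2 ESCs Slc1a4 was lower than in scrambled ESCs (-1.80), and Slc7a7 was not called (-0.58). A link between the core and these changes was not tested. The antioxidant response core TGACNNNGC was in 8 of the 38 promoters (21.1%, Slc36a1, Slc38a2, Slc43a1, Slc6a9, Slc7a1 and Slc7a6) and in 12.4% of all, and the E-box CACGTG in 3 (7.89%) and in 7.15% of all. Direct repeats of the retinoic acid receptor's binding letters, AGGTCA spaced by 2 or 5 bases and AGTTCA spaced by 5, were in 0 of the 38 promoters and in at most 0.0244% of all. A match describes these letters only, and binding was not measured.

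The glutamate transporters Slc1a1, Slc1a2 and Slc1a3 take up glutamate and aspartate with sodium, and Slc1a1 also takes up cysteine for glutathione. Slc1a3, known as GLAST from glia and neural progenitors, read 6.74, 6.84, 6.84 and 6.98 in KD1 cells after retinoic acid, against 8.55 and 8.39 in scrambled cells after retinoic acid. In ESCs it read 7.20 and 6.90 in KD2 and 7.73 and 7.44 in KD1, against 7.86 and 8.09 in scrambled cells. Scrambled cells after retinoic acid were the highest, and KD1 cells after retinoic acid were the lowest together with KD2 ESCs, which they overlapped. The KD1 level after retinoic acid was 3.07-fold lower (-1.62 ± 0.15, adjusted p = 1.77e-05), with -1.68 from replicates 1 and 2 and -1.56 from replicates 3 and 4. From ESCs to retinoic acid, Slc1a3 fell in KD1 cells (-0.73 ± 0.15, adjusted p = 0.00171) and rose in scrambled cells (0.50 ± 0.17, adjusted p = 0.0404). The difference between these changes was -1.23 ± 0.23 (adjusted p = 0.00777). The rise in scrambled cells was lost without any 1 of 8 arrays (adjusted p up to 0.226, without scrambled ESC replicate 1), and the other calls were kept whichever array was left out. KD2 ESCs were 1.90-fold below scrambled ESCs (-0.92 ± 0.17, adjusted p = 0.00708, and 0.0844 without scrambled ESC replicate 2). Neural progenitor markers were also lower in KD1 cells after retinoic acid, as given above. Slc1a1 read 4.61, 4.13, 4.57 and 4.20 in KD1 cells after retinoic acid, against 6.28 and 5.49 in KD1 ESCs, and 4.35 and 4.53 in scrambled cells after retinoic acid, against 5.96 and 5.05 in scrambled ESCs. It fell in KD1 cells (-1.51 ± 0.31, adjusted p = 0.00172) and in scrambled cells (at least 1.91-fold, adjusted p = 0.034), where the retinoic acid arrays lay under the dim level. The scrambled change was -1.07, and -0.61 without scrambled ESC replicate 1 (adjusted p = 0.29), so the bound rests on that array, and the call was also lost without either scrambled retinoic acid array (0.148 and 0.094).

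The proton-coupled transporters Slc15a1 and Slc15a2, known as PepT1 from intestine and PepT2 from kidney and brain, take up short peptides. In KD2 ESCs they moved apart. Slc15a1 read 8.45 and 6.30 in KD2 and 7.58 and 6.83 in KD1 ESCs, against 5.49 and 5.22 in scrambled ESCs, and every array labelled KD1 or KD2 lay above both scrambled arrays. After retinoic acid it was under the dim level on every array, at 3.84, 3.86, 3.96 and 3.68 in KD1 cells and 3.69 and 3.81 in scrambled cells. The change in KD2 ESCs was 2.02 ± 0.50 (4.05-fold, adjusted p = 0.0255), with 0.94 from KD2 replicate 2 alone, 3.09 from the array labelled KD2 replicate 1 alone, and adjusted p-values of 0.0745 and 0.167 without scrambled ESC replicate 1 or 2. In KD1 ESCs it was 1.85 ± 0.50 (adjusted p = 0.0867), and 0.000781 without the KD2 arrays. The gene was at least 6.46-fold lower after retinoic acid in KD1 cells (adjusted p = 5.87e-05). In scrambled cells it was at least 1.71-fold lower (adjusted p = 0.0237), a call lost without any 1 of the 4 scrambled arrays. Slc15a1 entered the tests only through ESC arrays, so these falls are descriptions. Slc15a1 lies on chromosome 14, whose median change was 0.27 in KD2 ESCs, and with each chromosome centred the KD2 change was 1.70 (adjusted p = 0.071).

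Slc15a2 went the other way in ESCs. It read 3.67 and 3.94 in KD2 and 4.06 and 4.00 in KD1 ESCs, under the dim level, against 5.40 and 5.98 in scrambled ESCs, and 3.64, 3.35, 3.56 and 3.55 in KD1 cells after retinoic acid, against 4.68 and 4.28 in scrambled cells after retinoic acid. All 8 arrays labelled KD1 or KD2, the one labelled KD2 replicate 1 included, lay below all 4 scrambled arrays. The log2 change was -1.88 ± 0.21 in KD2 ESCs (adjusted p = 0.000534) and -1.66 ± 0.21 in KD1 ESCs (adjusted p = 0.00407), at least 2.13-fold in each, and both calls were kept whichever array was left out. After retinoic acid KD1 cells differed from scrambled cells by -0.96 ± 0.18 (adjusted p = 0.00289, and 0.0639 without scrambled retinoic acid replicate 1), where the scrambled mean itself lay about at the dim level and no fold is given. Slc15a2 fell after retinoic acid in scrambled cells (-1.21 ± 0.21, adjusted p = 0.00093). In KD1 cells both groups lay under the dim level, and the call there (adjusted p = 0.0381) was lost without any 1 of 5 arrays, up to 0.168.

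The uniporters Slc16a10, which carries aromatic amino acids, and Slc43a1 and Slc43a2, which carry branched-chain and other large neutral amino acids, were all lower in KD2 ESCs. Slc43a1 read 5.77 and 5.76 in KD2 ESCs, 7.61 and 7.87 in KD1 ESCs and 7.10 and 8.46 in scrambled ESCs. The KD2 pair lay well below all other arrays, and the scrambled pair was wide. KD2 ESCs were 4.04-fold below scrambled ESCs (-2.02 ± 0.33, adjusted p = 0.00331) and 3.95-fold below KD1 ESCs (adjusted p = 0.0142), and the change was nearly the same with either KD2 array alone (-2.02 and -2.01 against scrambled ESCs). It depended on the scrambled arrays, being -2.70 without scrambled ESC replicate 1 and -1.33 without replicate 2. The call against KD1 ESCs was lost without either KD1 array (0.113 and 0.123). Slc43a2 read 5.81 and 5.47 in KD2, 6.21 and 6.11 in KD1 and 6.66 and 7.22 in scrambled ESCs, in that rising order with no overlap. The KD2 change was -1.30 ± 0.25 (adjusted p = 0.00708, and 0.0892 without scrambled ESC replicate 2), and the KD1 change -0.78 ± 0.25 (adjusted p = 0.151). Slc16a10 read 4.25 and 4.42 in KD2 ESCs, under the dim level, and 4.84 and 4.88 in KD1 ESCs, against 5.71 and 6.04 in scrambled ESCs. It was at least 2.43-fold lower in KD2 ESCs (adjusted p = 0.0006) and 2.02-fold lower in KD1 ESCs (-1.01 ± 0.18, adjusted p = 0.0177), a KD1 call lost without scrambled ESC replicate 2 (0.175) or either KD1 array (0.155 and 0.106). Feeder and fibroblast markers had lower array means in the same groups, 5.99 to 6.28 in KD2 and 5.80 to 6.52 in KD1 ESCs, against 6.70 to 6.77 in scrambled ESCs, and 3 and 1 of 13 called lower. Extraembryonic endoderm markers had array means of 5.29 to 5.53 in KD2 and 6.13 to 6.16 in KD1 ESCs, against 5.55 to 5.56 in scrambled ESCs, with 5 of 18 higher in KD1 ESCs (Cubn by 2.92) and 6 of 18 lower in KD2 than in KD1 ESCs. Of 14 pluripotent cell markers, 3 were higher in KD2 and 2 in KD1 ESCs, Klf4 (3.32-fold and 3.10-fold) and Tbx3 (4.92-fold and 3.08-fold) in both. The part of these markers in the ESC results was not tested. Slc43a2 and Slc16a10 were lower after retinoic acid in both lines. After it, Slc43a2 ran from 5.23 to 5.76 in KD1 cells and read 5.74 and 6.21 in scrambled cells, and Slc16a10 ran from 4.34 to 4.74 in KD1 cells and read 4.66 and 4.60 in scrambled cells. Except for Slc16a10 in scrambled cells (-1.25 ± 0.18, adjusted p = 0.000236), these calls were lost without single arrays, up to 0.0927 for Slc43a2 in scrambled cells, 0.092 for Slc43a2 in KD1 cells and 0.19 for Slc16a10 in KD1 cells.

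**Figure D4:**
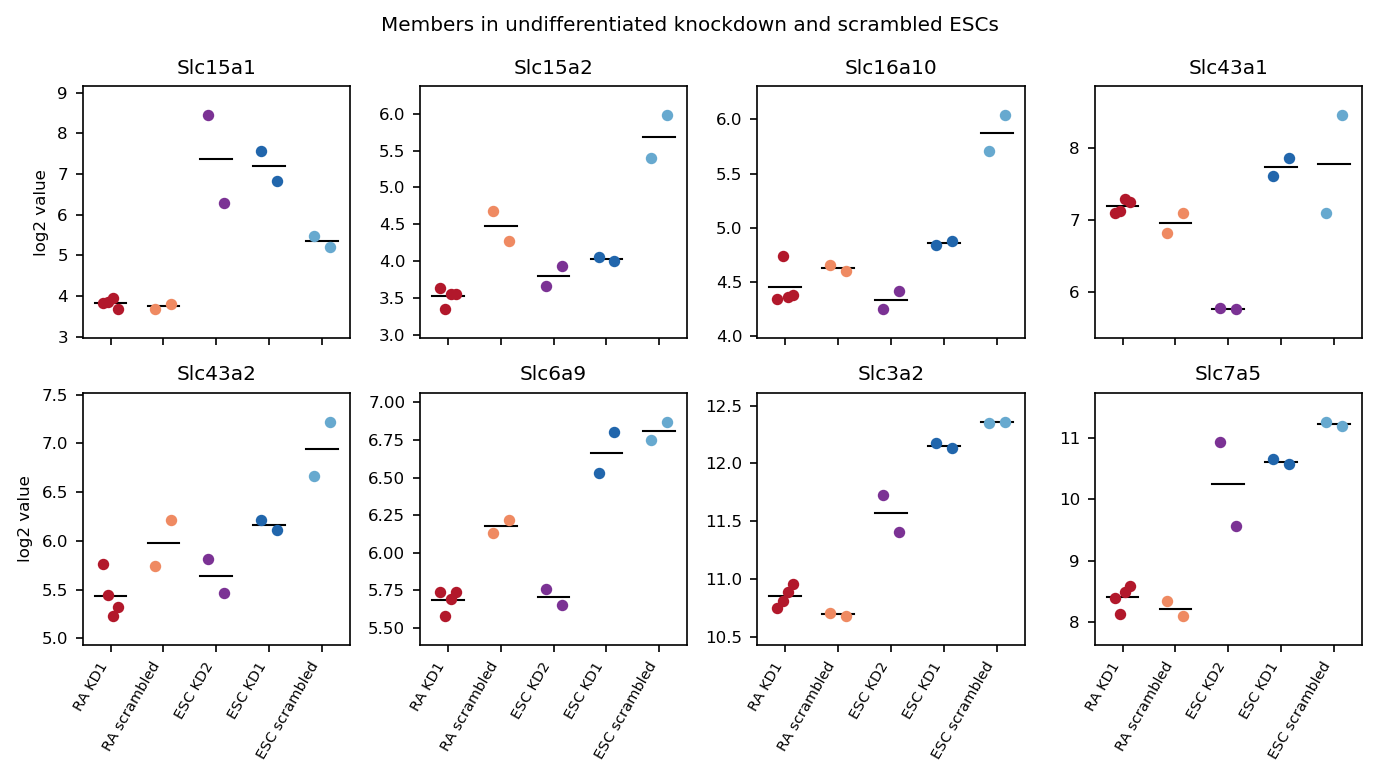
Log2 values on each array (points, with the group mean as a line) of 8 transporter genes by group. Slc15a1 lies higher, and Slc15a2 and Slc16a10 lie lower, in the ESC arrays labelled KD1 and KD2 than in scrambled ESCs, while Slc43a1 and Slc6a9 lie low in KD2 ESCs but not in KD1 ESCs.

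The SLC36 carriers are Slc36a1, which releases small neutral amino acids from lysosomes with protons, and Slc36a4, whose human counterpart carries proline and tryptophan. Slc36a4 read 8.13, 8.14, 8.73 and 8.53 in KD1 cells after retinoic acid and 7.40 and 7.40 in scrambled cells after retinoic acid, against 5.33 and 4.82 in KD2, 5.33 and 5.28 in KD1 and 5.32 and 5.98 in scrambled ESCs. Every retinoic acid array lay above every ESC array, and the KD1 arrays above the scrambled ones. The gene rose 8.46-fold in KD1 cells (3.08 ± 0.23, adjusted p = 1.1e-06) and 3.36-fold in scrambled cells (1.75 ± 0.27, adjusted p = 0.000338). It was the only transporter gene called higher after retinoic acid in both lines. The difference between the rises was 1.33 ± 0.35 (adjusted p = 0.0393), a call lost without any 1 of 7 arrays (up to 0.164, without scrambled ESC replicate 2). After retinoic acid the KD1 level was 1.98-fold higher (0.98 ± 0.23, adjusted p = 0.00895), lost without either scrambled array (0.0736 and 0.0715), with 0.74 from replicates 1 and 2 (adjusted p = 0.0822) and 1.23 from replicates 3 and 4 (adjusted p = 0.00958). Slc36a1 ranged from 5.58 to 7.37 and passed no test in the model of all 12 arrays. After retinoic acid its change was -0.43 in KD1 cells and -0.80 in scrambled cells, and its difference from Slc36a4 was not tested. Without the KD2 arrays Slc36a1 was called for KD1 against scrambled cells after retinoic acid. Its change in KD2 ESCs turned with the array used, being -0.72 from KD2 replicate 2 alone and 0.95 from the array labelled KD2 replicate 1 alone.

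The SLC38 carriers bring in glutamine, alanine and other neutral amino acids with sodium. Slc38a2, which is known to be induced when amino acids run short, read 10.58, 10.82, 11.11 and 11.15 in KD1 cells after retinoic acid and 10.63 and 10.57 in scrambled cells after retinoic acid, against 11.77 and 11.02 in KD2, 12.06 and 12.13 in KD1 and 12.16 and 12.15 in scrambled ESCs. It fell in KD1 cells (-1.18 ± 0.21, adjusted p = 0.000733) and in scrambled cells (-1.55 ± 0.25, adjusted p = 0.00046), and KD1 and scrambled cells did not differ detectably in either state. Slc38a3, which carries glutamine, histidine and asparagine against protons, read 4.12, 4.55, 4.46 and 4.34 in KD1 cells after retinoic acid, against 5.67 and 5.45 in scrambled cells after retinoic acid, and 5.75 and 5.46 in KD2 and 6.68 and 6.44 in KD1, against 6.77 and 7.05 in scrambled ESCs. The groups fell into steps, with KD1 cells after retinoic acid lowest and under the dim level on all but 1 array. It fell in KD1 cells (-2.19 ± 0.17, adjusted p = 1.41e-06) and 2.55-fold in scrambled cells (-1.35 ± 0.19, adjusted p = 0.000236). The KD1 level after retinoic acid was lower than the scrambled level (-1.19 ± 0.17, adjusted p = 0.000376), and no fold is given against a group mostly under the dim level. KD2 ESCs were 2.46-fold below scrambled ESCs (-1.30 ± 0.19, adjusted p = 0.00218) and 1.93-fold below KD1 ESCs (adjusted p = 0.0291, and 0.256 or 0.127 without KD1 ESC replicate 1 or 2, and 0.0513 or 0.0541 without KD1 retinoic acid replicate 3 or 4). Slc38a5, of the same kind of transport, ran from 4.66 to 5.07 after retinoic acid in both lines, against 5.46 to 7.04 in ESCs. It fell in KD1 cells (-1.66 ± 0.36, adjusted p = 0.00237, and 0.0517 without KD1 ESC replicate 1) and in scrambled cells (-1.34 ± 0.41, adjusted p = 0.0232, with 0.113 or 0.0738 without either scrambled retinoic acid array). The size of the scrambled change rested on the ESC arrays, being -0.55 (adjusted p = 0.247) without scrambled ESC replicate 1 and -2.13 without replicate 2.

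Slc38a4, an imprinted gene expressed from the paternal allele in mouse, read 11.25, 11.03, 10.50 and 10.87 in KD1 cells after retinoic acid, against 11.68 and 11.71 in scrambled cells after retinoic acid. The 4 KD1 arrays lay below both scrambled arrays, and the difference was -0.79 ± 0.24 (adjusted p = 0.0334). This call was lost without any 1 of 7 arrays, with adjusted p-values up to 0.172, and the change was -0.56 from replicates 1 and 2 and -1.02 from replicates 3 and 4. Slc38a1, Slc38a2 and Slc38a4 lie next to each other on chromosome 15, with 0 protein-coding genes between neighbours. After retinoic acid Slc38a2 fell in both lines. Slc38a1 and Slc38a4 passed no test in either in the model of all 12 arrays. Their changes were 0.07 and -0.51 in KD1 cells and -0.40 and 0.37 in scrambled cells. The difference between the 3 genes was not tested. Slc38a1 was lower in KD2 ESCs (-0.84 ± 0.22, adjusted p = 0.0309), with -1.22 from KD2 replicate 2 alone and -0.46 from the array labelled KD2 replicate 1 alone, a call lost without any 1 of 5 arrays (up to 0.214).

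Of the sodium- and chloride-coupled SLC6 carriers, Slc6a6 takes up taurine and Slc6a9 glycine. Slc6a9 read 5.74, 5.58, 5.69 and 5.74 in KD1 cells after retinoic acid and 6.13 and 6.22 in scrambled cells after retinoic acid, and 5.76 and 5.65 in KD2, 6.53 and 6.80 in KD1 and 6.75 and 6.87 in scrambled ESCs. KD2 ESCs read as low as KD1 cells after retinoic acid, and KD1 ESCs overlapped scrambled ESCs. The change in KD2 ESCs was -1.10 ± 0.15 against scrambled ESCs (adjusted p = 0.0014) and -0.96 ± 0.15 against KD1 ESCs (adjusted p = 0.0124, and 0.0611 or 0.123 without KD1 replicate 1 or 2). Slc6a9 fell after retinoic acid in KD1 cells (-0.98 ± 0.13, adjusted p = 8.32e-05) and in scrambled cells (-0.64 ± 0.15, adjusted p = 0.00603). After retinoic acid KD1 cells were 1.40-fold below scrambled cells (-0.48 ± 0.13, adjusted p = 0.0199), a call lost without either scrambled array (0.0872 and 0.152) or KD1 replicate 2 (0.0502). Slc6a6 fell by 1.38 ± 0.27 in KD1 cells (adjusted p = 0.00116) and by 1.10 ± 0.31 in scrambled cells (adjusted p = 0.0146) on the log2 scale, the scrambled call being lost without scrambled ESC replicate 1 (0.0947) or either scrambled retinoic acid array (0.0635 and 0.0726).

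The 7 genes that were not tested are known mainly from specialised tissues: the astrocyte glutamate transporter Slc1a2, the heavy chain Slc3a1 with its light chain Slc7a9, the light chains Slc7a8 and Slc7a11, the broad-range carrier Slc6a14 and the neutral amino acid carrier Slc6a19. All lay under the dim level on all 12 arrays. Tested without the filter, their log2 changes after retinoic acid ran from -0.31 to 0.33 in KD1 cells and from -0.46 to 0.68 in scrambled cells. Slc6a14 in scrambled cells was called, at 3.38 and 3.52 after retinoic acid, against 2.80 and 2.74 in ESCs (0.68 ± 0.14, adjusted p = 0.00438), values at which no fold is given. Without the filter 25.9% of all genes were called in that comparison.

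Among 26 other tested amino acid transporter genes, 3 rose and 8 fell after retinoic acid in KD1 cells and 0 rose and 9 fell in scrambled cells, with medians of -0.21 and -0.30. These were 42.3% and 34.6% of the list, below the 50.8% and 39.1% of all tested genes called in those comparisons. The neutral amino acid transporter gene Slc6a15 fell by 4.26 on the log2 scale in scrambled cells (adjusted p = 3.65e-05). After retinoic acid 4 of the 26 were higher and 0 lower in KD1 cells: Slc6a15 by 3.02 ± 0.41 (adjusted p = 0.000259), the lysosomal cystine exporter gene Ctns by 2.08 ± 0.25 (adjusted p = 0.000116), the lysosomal cationic exporter gene Slc66a1 by 0.79 and the mitochondrial branched-chain carrier gene Slc25a44 by 0.76. Of 39 tested genes of amino acid sensing and mTORC1, 5 were higher and 1 lower in KD1 cells after retinoic acid, among them the folliculin gene Flcn (1.00), its partner Fnip2 (0.73) and the leucine-sensing sestrin gene family members Sesn3 (0.99) and Sesn1 (-0.71). Of 28 tested genes of the amino acid response through GCN2 and ATF4, 3 were higher and 3 lower. Among them were Atf3 (1.87), the tryptophan tRNA ligase gene Wars (1.33), the serine synthesis gene Phgdh (-1.17) and the mTORC1 inhibitor gene Ddit4 (-0.86). Atf4 and the C/EBP gene Cebpb were also called, with smaller changes. Of 16 tested transporter partner and glutathione genes, 4 were higher and 1 lower, led by the scaffold gene Slc9a3r1 (-1.44), the kinase gene Sgk1 (1.25), Cd44 (0.89) and the monocarboxylate transporter partner gene Bsg (0.76). In KD1 against scrambled cells after retinoic acid, the lists had 15.4% (other transporters), 15.4% (sensing), 21.4% (amino acid response) and 31.2% (partners) called, beside 22.7% of all tested genes.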

How the data were processed

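Per the submitters' processing notes, the authors summarised the Affymetrix arrays with RMA (version and settings not given in the sources used here) and deposited log2 values per probe set, whose array medians ran from 4.73 to 5.09. No count or depth lies behind such values, and the number of arrays limits the precision. Of 35556 probe sets, 21789 were listed with 1 gene symbol, 1621 with several and 12146 with none. The probe set with the highest mean stood for each of 19938 genes, and no further scaling was applied. Groups came from the sample titles. Genes were tested with limma 3.58.1 (lmFit and eBayes in R 4.3.3) in 1 group-means model over 12 arrays (7 residual degrees of freedom, two-sided), with Benjamini-Hochberg adjustment over 12988 genes in each of 7 comparisons. The model was run on simulated data in which each gene had the same spread on every array. The wider spread of the KD2 arrays was not simulated, so that run does not bear on it. Tables and figures used Python 3.11.15, pandas 2.3.3, numpy 2.4.6 and matplotlib 3.10.9. Where a group lay under the dim level on all its arrays, its mean was replaced by the mean dim level of those arrays, and the fold is given as a bound. The comparisons in ESCs share the scrambled arrays. Smarcd1 and all 33 genes are named, with array values for those that passed a test and ranges otherwise. Values are given for up to 4 genes of each other list in a comparison. The genes, the other lists, the markers and the motifs were chosen with earlier results of these data known. Alternatives were no filter on dim genes, the mean of a gene's probe sets, cyclic loess, median centring, chromosome centring, array weights, a replicate block, only the compared arrays, 2 of the 4 KD1 arrays after retinoic acid, no KD2 arrays, and each array left out.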

Additional observations from a re-analysis of the deposited data

Results flagged for a closer look

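In KD1 cells after retinoic acid, Slc16a10 read 4.74 on replicate 2, far above the other 3 arrays of that group (4.34 to 4.38). It was the only one of the 33 transporter genes with an array standing apart in that group, the only group of 4 arrays. Chance alone flags about 1 in 20 such sets of 4 values, so 1 flag among 33 genes is not unusual. The other arrays of the group lay under the dim level for this gene. The KD2 and KD1 lines differed from each other in ESCs for Slc43a1 (-1.98), Slc6a9 (-0.96) and Slc38a3 (-0.95), as log2 changes of KD2 minus KD1. The change after retinoic acid differed between KD1 and scrambled cells for Slc1a4 (2.23), Slc36a4 (1.33) and Slc1a3 (-1.23), as log2 changes of the KD1 change minus the scrambled change.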

How the results depend on the processing

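Of 1549 single-gene values under an alternative, 1350 kept direction and side of the threshold, 199 kept direction but were no longer called, and none of the called transporter genes changed direction. Many alternatives, such as leaving out an array of a group not compared, leave the estimate itself as it was. Direction could not change there, so these counts do not measure how firm the directions are. The counts that follow have no share of all tested genes beside them. That share moved as well, for KD1 ESCs from 2.32% to 8.14% without both KD2 arrays. For KD1 against scrambled ESCs (2 called) the count was 7 with array weights, 4 on the compared arrays and 6 without both KD2 arrays. For KD2 against scrambled ESCs (12) it was 0 with array weights (13 at an unadjusted p under 0.05) and 0 on the compared arrays (14). For KD2 against KD1 ESCs (3) it was 0 with array weights (3 unadjusted), 0 on the compared arrays (6) and 1 with replicates 1 and 2 of the KD1 cells after retinoic acid. For KD1 against scrambled cells after retinoic acid (10) it was 5 with those replicates alone, and for the difference between the retinoic acid changes (3) it was 13 with array weights, 12 on the compared arrays and 12 without both KD2 arrays. With the replicate number as a block, limma called 0 for KD1 ESCs (6 unadjusted), 0 for KD2 against KD1 ESCs (12 unadjusted) and 5 for KD1 against scrambled cells after retinoic acid, and 10, 18, 14 and 2 for KD2 ESCs, retinoic acid in scrambled cells, retinoic acid in KD1 cells and the difference between those changes. Same-numbered arrays of 2 groups deviated together with correlations of -0.183 to 0.243. In a group of 2 arrays the deviations mirror each other, so these values cannot settle whether the numbers pair the arrays. With each array left out, the counts ran from 1 to 6 for KD1 ESCs, from 7 to 21 for KD2 ESCs, from 0 to 18 for KD2 against KD1, from 12 to 22 for retinoic acid in scrambled cells, from 13 to 20 for retinoic acid in KD1 cells, from 5 to 12 for KD1 against scrambled cells after retinoic acid, and from 2 to 12 for the difference between the changes. An array left alone in its group was assumed to vary like the others. Smarcd1, which passed no test in these comparisons, changed sign for retinoic acid in scrambled cells (0.07) to -0.04 with cyclic loess, -0.02 with median centring and -0.01 with chromosome centring, and ran from -0.04 to 0.17 with an array left out. For KD2 against KD1 it ran from -0.61 without the array labelled KD2 replicate 1 to 0.80 without KD2 replicate 2. The cause of these changes was not tested. Median centring moved changes by at most 0.09.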

Other observations

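In KD2 ESCs 4 of 39 amino acid sensing and mTORC1 genes were lower and 0 higher than in scrambled ESCs, among them Rragd, which encodes a Rag GTPase that recruits mTORC1 to lysosomes (-1.67), and Sesn3 (-0.97). Of 28 genes of the amino acid response, 3 were lower in KD2 ESCs, namely Herpud1 (-2.03), Ddit4 (-1.36) and Vldlr (-1.10), and 1 was lower in KD1 ESCs, Ddit4 (-1.46). Of 16 partner and glutathione genes, 2 were lower in KD2 ESCs, the monocarboxylate transporter partner gene Emb (-2.28) and the xCT-stabilising Cd44 (-0.93). These shares, 10.3%, 10.7% and 12.5%, lie near the 10.0% of all tested genes called in KD2 ESCs, of which most were lower too. None of the 26 other amino acid transporter genes was called by limma in KD2 ESCs (6 at an unadjusted p under 0.05) or in KD1 ESCs (2 unadjusted). After retinoic acid, Slc6a15 and Ctns differed between the lines in their change as well, by 3.35 and 2.00 on the log2 scale.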
